A study of Mus musculus with 24 samples.

Results

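Potassium channels set the resting potential of neurons and glia, end the action potential and limit repetitive firing, and inherited loss of several of them causes epilepsy. Most are built from pore-forming subunits that assemble as tetramers. The voltage-gated families (Kcna, Kcnb, Kcnc, Kcnh, Kcnq) open on depolarization, the Kcnm, Kcnn and Kcnt channels open with intracellular calcium or sodium, the inward rectifiers (Kcnj) hold the cell near the potassium equilibrium potential or follow G proteins and ATP, and the tandem-pore channels (Kcnk) carry background leak. Subunits of the Kcnf, Kcng, Kcns and Kcnv groups form no channel alone and modify Kcnb channels, while Kcnab, Kcne and Kcnmb proteins are auxiliary.

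The genes described here are the potassium channel genes of the mouse other than the Kv4 complex and Kcnj10: all rows of the count table whose symbol begins with Kcn, without Kcnd1, Kcnd2, Kcnd3, the 4 Kcnip genes and Kcnj10, and without antisense and host transcripts. In all, 77 of the 18647 rows met this rule, and 76 passed the filter on low counts and were tested. Kcne2 did not pass it. A further 9 symbols that the rule names (Kcna7, Kcna10, Kcnv2, Kcne1, Kcnmb3, Kcnj13, Kcnk7, Kcnk15 and Kcnk16) were not analysed here.

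RNA came from the CA1 field of the hippocampus, microdissected from slices of adult C57Bl/6N mice. SE mice received scopolamine methyl nitrate and 335 mg/kg pilocarpine hydrochloride, which induces status epilepticus (SE), and diazepam after SE onset, and were sampled after 6, 12, 24, 36 or 72 h. Non-SE controls (Ctr) received the same injections with saline in place of pilocarpine and were sampled at 3 of these times, 12, 36 and 72 h. There were 3 libraries in each of 8 groups, and only pilocarpine-injected mice that developed SE were included, so pilocarpine and the seizures cannot be told apart. The labels do not say that replicates are separate animals, so p-values measure the spread between these libraries. In bulk tissue, fewer cells of a type and less RNA per cell cannot be told apart.

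Levels are CPM, the counts of a gene relative to the library's total after TMM scaling. They are compared between genes per kilobase of exon (CPM per kb), except where abundant genes are split from scarce ones by plain CPM. SE and control were compared at 12, 36 and 72 h, and SE at 6 and 24 h, which have no controls of their own time, was set against the mean of the 3 control groups. These 5 comparisons share control libraries. A gene was called changed at an adjusted p (edgeR's quasi-likelihood test, Benjamini-Hochberg over all 18153 genes tested) of at most 0.05 if its log2 fold change (log2FC) was also 0.66 or more in size. An error after ± on a log2FC is its standard error, with 3 libraries a group.

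Library totals lay between 2663936 and 30133731 counts. In 6 libraries, genes of sensory ganglia, which lie outside the brain, stood far above the rest: Scn10a, a sodium channel of pain neurons, was between 60.6 and 355 CPM in these and at most 12 CPM in the other 18. They were Ctr 72 h replicate 2, SE 6 h replicate 3, SE 12 h replicate 1, SE 36 h replicate 3 and SE 72 h replicates 1 and 2. Results at 72 h are therefore also given without these libraries, a fit that leaves 1 SE library and 2 controls at 72 h and assumes that the lone library varies like the other groups. Markers of CA1 pyramidal cells were present in every library, with a summed level of 862 to 1696 CPM in controls and 393 to 1075 CPM after SE.

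The potassium channel genes changed in both directions. At 12 h, 14 members rose and 22 fell (47.4% of 76), where 25.3% of all genes were called. This count fell to 23 without Ctr 12 h replicate 3 or SE 12 h replicate 3, and to 12 when every library was thinned to the smallest. The number of calls at 12 h, and the size of its lead over later times, thus depends on single libraries and on depth. At 36 h, 9 rose and 16 fell (32.9%, against 21.7% of all genes). At 72 h, 8 rose and 7 fell (19.7%), a share near the 19.4% of all genes, and without the ganglion libraries 5 rose and 2 fell. Falls were more frequent among the members than among all genes at each of these times, at 28.9%, 21.1% and 9.21% of members against 11.4%, 8.96% and 4.15% of all genes. Rises were made by 18.4%, 11.8% and 10.5% of members, against 13.9%, 12.7% and 15.2% of all genes, and so lay near or below that background at 36 and 72 h. The rises at 12 h include those of Kcnj1, Kcnj15, Kcng3 and Kcnk5. Those at 36 and 72 h include Kcnj15 and Kcnn4, and those at 72 h also Kcnk18. All of these genes passed the filter on low counts only with the SE libraries, which raises the shares of members. The median log2FC of the members at 12, 36 and 72 h was -0.09, -0.25 and -0.23, beside 0.01, 0.00 and 0.10 over all genes tested.

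At 6 h, 19 members were higher and 6 lower than the mean of the control groups (32.9%, against 22% of all genes). Higher calls also outnumbered lower ones among all genes at 6 h, with 15.8% of them higher, against 25% of members. The higher members include Kcnj1, Kcnj15, Kcng3, Kcnn4 and Kcnk18, which passed the filter on low counts only with the SE libraries. At 24 h, 13 were higher and 18 lower (40.8%, against 24.2% of all genes). Kcnj15, Kcnn4 and Kcnk18 are among the higher members at 24 h too. The lower calls were 7.89% and 23.7% of members at 6 and 24 h, beside 6.2% and 9.24% of all genes. With all SE libraries against all controls, 15 members were higher and 18 lower (43.4%, against 24.4% of all genes called and 7.7% of all genes lower). Over the matched times 45 members were called at least once, 0 of them in opposite directions, and 31 were not called by edgeR at any. Of these 31, 8 were called at 6 or 24 h (Kcna1, Kcnb2, Kcnc4, Kcng1, Kcnmb2, Kcnmb4, Kcnu1 and Kcnj16), which leaves 23 members with no call in any of the 5 comparisons and log2FCs between -0.75 and 0.84 at 12 h, between -0.95 and 0.54 at 36 h, and between -0.84 and 2.74 at 72 h. Of the rest, 3 rose at all matched times (Kcnj2, Kcnj15 and Kcnk13, beside 4.64% of all genes), of which Kcnj15 passed the filter on low counts only through the SE libraries, and 5 fell at all of them (Kcnc2, Kcnh7, Kcnj9, Kcnj11 and Kcnk4, beside 1.33% of all genes). The counts of 45, 0, 31, 8 and 23 members were not set against all genes and describe these members only.

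**Figure D1:**
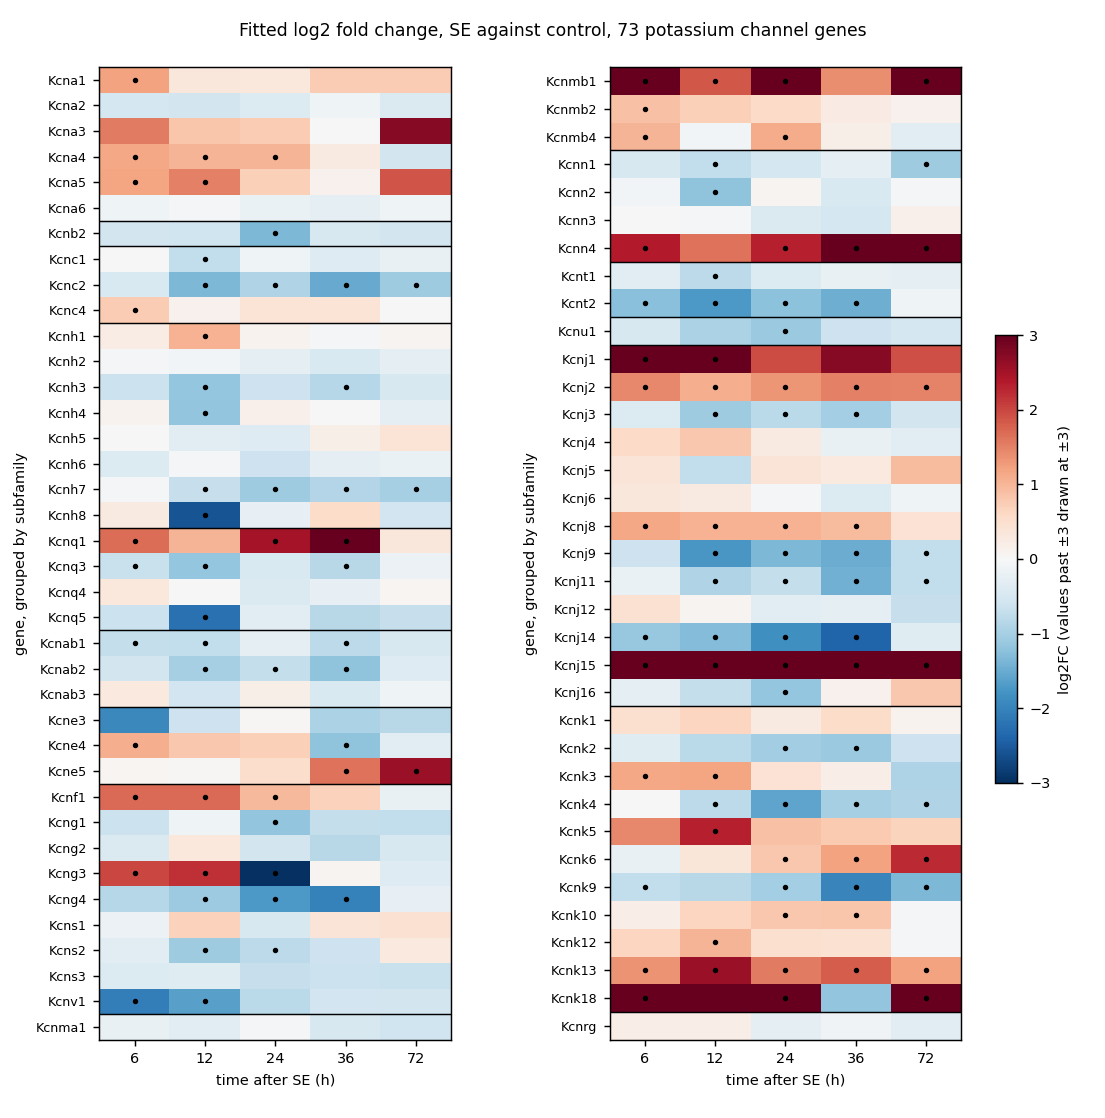
Log2FC of 73 of the 76 tested potassium channel genes (rows, by subfamily) against controls at the 5 times sampled after SE (columns), as colour clipped at 3 in either direction, with a dot where the gene was called. Kcnj2, Kcnj15 and Kcnk13 carry a dot for a rise at all 5 times, and no gene shown carries a dot for a fall at all 5.

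By plain CPM, most of the falls were among abundant channels and most of the rises among scarce ones. Plain CPM also depends on exon length, so this split partly sorts genes by length. When the 76 genes were split at their median level of 18.9 CPM over all libraries, a split chosen after these values were seen, the more abundant 38 held 15 of the 22 falls at 12 h, 11 of the 16 at 36 h and 5 of the 7 at 72 h. They held 4 of the 14 rises at 12 h and 0 of the 9 and 8 rises at 36 and 72 h. Scarce genes rose more often in the whole table too: below that level 14.3%, 15.6% and 20.5% of all genes rose at 12, 36 and 72 h, against 26.3%, 23.7% and 21.1% of the scarce members. Among all genes above that level, 11.5%, 10.2% and 4.29% fell at 12, 36 and 72 h, against 39.5%, 28.9% and 13.2% of the abundant members. Some scarce members passed the filter only because they were detected after SE, among them Kcnj1 and Kcnj15.

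In control tissue, the summed level of the 13 subfamilies with more than 1 tested gene was highest for Kcnab, Kcnj, Kcnc and Kcnq, and lowest for Kcne. The auxiliary Kcnab genes summed to 99.5 CPM per kb in the 9 controls (lowest library 72, highest 125), of which Kcnab2 alone made up 80.7%. The inward rectifiers summed to 93.2 CPM per kb (81.1 to 101), with Kcnj3 as the most abundant member at 37.1 CPM per kb. The Kcnc genes, which code for fast delayed rectifiers of rapidly firing cells, summed to 64.6 CPM per kb (46.7 to 85.5), and the Kcnq genes, the M-current family, to 63.2 CPM per kb (46.9 to 92.3). These neighbours in the order overlapped in their ranges.

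After SE, the summed Kcnab level was lowest at 12 h, with a mean of 51.4 CPM per kb, and was 64.9 CPM per kb at 72 h. The summed Kcnj level was lowest at 36 h, at 59 CPM per kb. The sum of the silent subunits (Kcnf, Kcng, Kcns and Kcnv) went from 51.2 CPM per kb in controls (42.1 to 62.1) to 90.7 at 6 h and 91.6 at 12 h, and was at 42.3 CPM per kb at 72 h. Kcnf1 alone made up 46% of that sum in controls, and the group as a whole did not rise: the median log2FC of its 9 members was -0.42 at 6 h and -0.14 at 12 h, with 7 of them below 0 at 6 h. The summed Kcne level was 5.05 CPM per kb in controls (4.23 to 6.28) and 29.3 CPM per kb at 72 h.

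**Figure D2:**
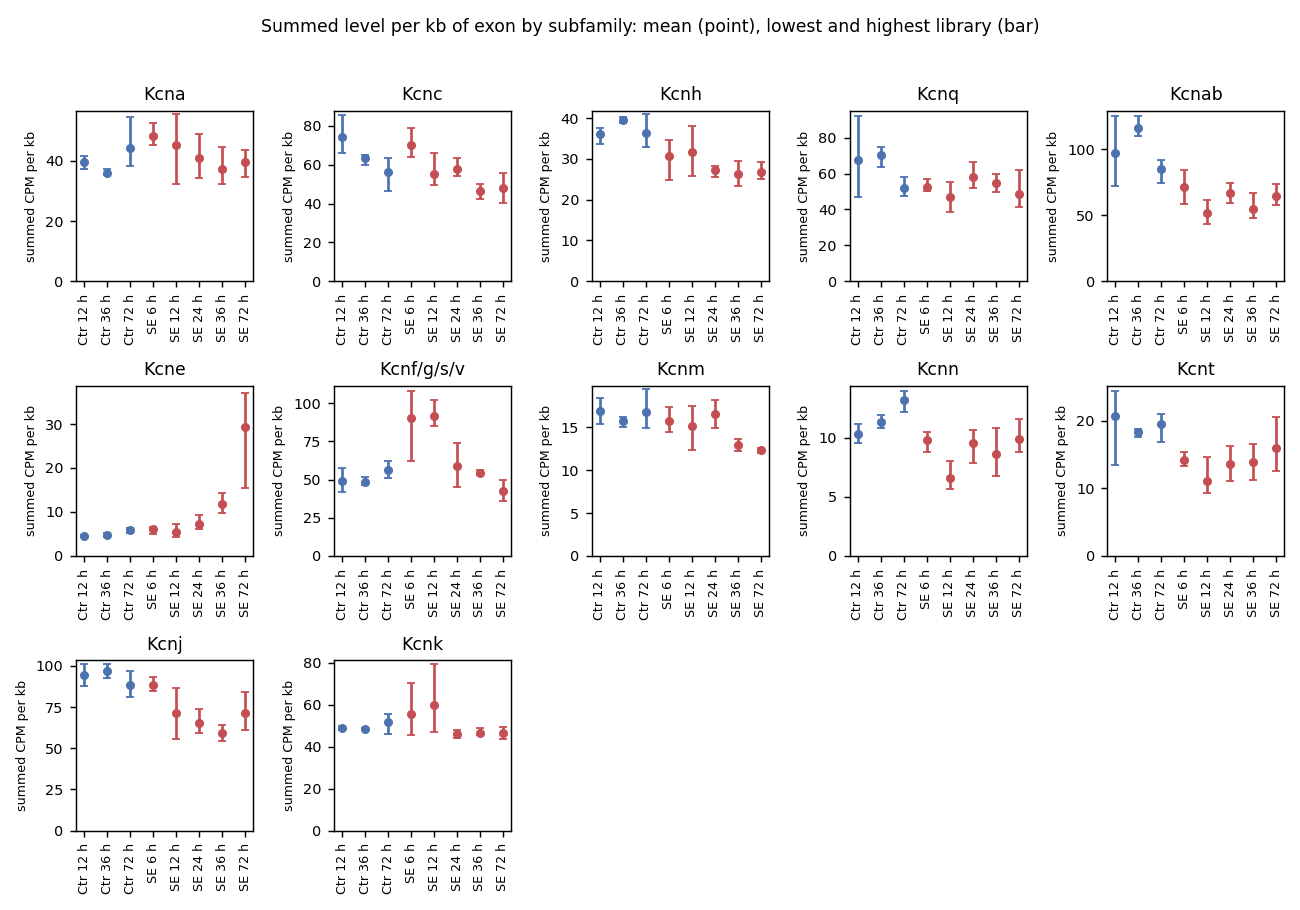
Summed level of 12 potassium channel subfamilies (CPM per kb of exon, 1 panel per subfamily) in the 3 control groups (blue) and at each time after SE (red), with the mean of the libraries as a point and the lowest and highest library as the ends of the bar. Kcnab falls from a mean of 99.5 over the 9 controls to 51.4 at 12 h, the Kcnf/g/s/v sum, of which Kcnf1 makes up 46% in controls, is at 91.6 at 12 h, and Kcne rises to 29.3 at 72 h.

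Among the voltage-gated Kcna genes, which code for the low-threshold channels of axons and dendrites, the rises were called at 6, 12 and 24 h. Of 6 members tested, 2 rose at 12 h (Kcna4 and Kcna5) and 3 at 6 h (with Kcna1), and none fell in any comparison. At 36 and 72 h none was called by edgeR, with 1 and 2 members at an unadjusted p under 0.05, 1 and 2 called by DESeq2, and 0 by limma-voom. Kcna2, the most abundant Kcna gene in controls (36.5% of the summed level), was not called in any comparison, with log2FCs of -0.55 ± 0.25, -0.14 ± 0.25 and -0.43 ± 0.25 at 12, 36 and 72 h.

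Kcna4 codes for the rapidly inactivating A-type channel of this subfamily. Its level in the 9 controls was 23.6 to 33.1 CPM, with a median of 30.8 CPM. It was 41.5, 61.4 and 95.2 CPM at 6 h and 69.6, 47.7 and 60.9 CPM at 12 h after SE, so all 6 of these libraries lay above all controls. The log2FC was 1.17 ± 0.28 at 6 h (adjusted p = 0.00243) and 1.02 ± 0.36 at 12 h (adjusted p = 0.0315). At 24 h, 1 of 3 libraries was at 113 CPM and the other two at 32.8 and 33.1 CPM, and without that library the log2FC fell from 1.02 to 0.17. At 72 h, all 3 SE libraries (20.3, 16.1 and 19.5 CPM) were below all controls, with a log2FC of -0.54 ± 0.38 that was not called. The 6 h call was lost without SE 6 h replicate 3, and the 12 h call without any of 5 libraries, at log2FCs of 0.89 to 1.16 over all omissions.

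Kcna1, a channel of axons whose mutation causes episodic ataxia and seizures, was at 60.4, 58.1 and 50.6 CPM at 6 h, against 9 to 69.6 CPM in controls, where the highest was Ctr 72 h replicate 2. Its log2FC at 6 h was 1.20 ± 0.23 (adjusted p = 0.000327), a call kept in all 13 alternatives and all 24 omissions of a library. The 12 h rise of Kcna5 rests on 1 library. Kcna5 at 12 h was at 2.29, 18.3 and 3.43 CPM against 2.56, 3.18 and 2.2 CPM in controls, and its log2FC of 1.52 ± 0.57 was 0.09 without SE 12 h replicate 2. At 6 h, where it was also called higher, Kcna5 was at 5.11, 4.02 and 3.27 CPM, against 0.341 to 4.12 CPM in all controls.

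Of the 3 auxiliary beta subunits of these channels, Kcnab1 and Kcnab2 fell at 12 and 36 h, and Kcnab3 was not called in any comparison. Kcnab2, by far the most abundant of all the members in controls (80.3 CPM per kb), was at 739, 527 and 1054 CPM in the 12 h controls and 481, 314 and 376 CPM at 12 h after SE. At 36 h it was at 885, 991 and 903 CPM in controls and 347, 349 and 510 CPM after SE, and the groups did not overlap at either time. The log2FC was -0.99 ± 0.21 at 12 h (adjusted p = 0.00116), -1.21 ± 0.21 at 36 h (adjusted p = 0.000209) and -0.39 ± 0.21 at 72 h (adjusted p = 0.181). Its exons share bases with Chd5 and Nphp4 on the opposite strand, and counting ignored strand. Kcnab1 fell by 0.74 at 12 h and by 0.78 at 36 h on the log2 scale; the 12 h call was lost without Ctr 12 h replicate 3 or SE 12 h replicate 3. Kcnab3 had log2FCs of -0.58 ± 0.28, -0.45 ± 0.28 and -0.13 ± 0.29 at 12, 36 and 72 h and of 0.29 ± 0.22 and 0.18 ± 0.23 at 6 and 24 h.

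The Kcnb genes code for slow delayed rectifiers of pyramidal cells. Kcnb2 was lower at 24 h, with a log2FC of -1.35 ± 0.45 (adjusted p = 0.0212), a call lost without SE 24 h replicate 1, SE 24 h replicate 3 or Ctr 72 h replicate 2. At 12, 36 and 72 h it was not called, with log2FCs of -0.59 ± 0.50, -0.48 ± 0.50 and -0.54 ± 0.52.

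Within the Kcnc subfamily, Kcnc2 fell at every matched time. Kcnc2 (chr10:112105226-112302929 of GRCm39, plus strand) is a fast delayed rectifier typical of interneurons. It was at 119, 108 and 157 CPM in the 12 h controls, 113, 131 and 118 CPM in the 36 h controls and 111, 90.5 and 120 CPM in the 72 h controls. SE libraries were at 81.3, 74.9 and 102 CPM at 6 h, 41.9, 61.4 and 49.2 CPM at 12 h, and 56.6, 71.8 and 60.6 CPM at 24 h. It then was at 46.5, 34.6 and 44.8 CPM at 36 h and 30.5, 60.9 and 63.6 CPM at 72 h. All libraries from 12 h on thus lay below all controls, while those at 6 h overlapped them.

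The log2FC of Kcnc2 was -1.34 ± 0.22 at 12 h (adjusted p = 8.25e-05), -1.52 ± 0.22 at 36 h (adjusted p = 2.30e-05) and -1.06 ± 0.22 at 72 h (adjusted p = 0.00118). Without the libraries that carried ganglion genes, the 72 h value was -0.86 (adjusted p = 0.0288). Of 8 interneuron markers, 2 rose and 0 fell at 12 h (Sst and Npy), 1 rose and 0 fell at 36 h (Npy), and 1 rose and 3 fell at 72 h. Their summed level was 588 to 928 CPM in controls, 1037 to 1540 CPM at 12 h, 961 to 1112 CPM at 36 h and 511 to 831 CPM at 72 h. Pvalb, the marker of fast-spiking cells, was not called, with log2FCs of -0.90, -0.81 and -0.52. The part of interneurons in the fall of Kcnc2 was not tested. Kcnc1, its close relative, fell only at 12 h (log2FC -0.75 ± 0.19), a call lost without Ctr 12 h replicate 3, SE 12 h replicate 1 or SE 12 h replicate 3. Kcnc4 rose at 6 h alone (log2FC 0.77 ± 0.19, adjusted p = 0.00365).

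The silent subunits were divided, and Kcnf1 had the highest level and the clearest rise. Of 9 tested, 2 rose (Kcnf1 and Kcng3) and 3 fell (Kcng4, Kcns2 and Kcnv1) at 12 h, 1 fell at 36 h (Kcng4), and edgeR called 0 at 72 h, with 0 at an unadjusted p under 0.05 and 0 called by DESeq2 or limma-voom. Kcnf1 was between 57.8 and 172 CPM in the 9 controls, with a median of 115 CPM. It was at 212, 409 and 445 CPM at 6 h and at 329, 336 and 338 CPM at 12 h, all above the highest control. It was at 210, 131 and 301 CPM at 24 h, 176, 194 and 172 CPM at 36 h and 47.2, 99.8 and 149 CPM at 72 h, the last within the range of controls. The log2FC was 1.70 ± 0.26 at 6 h (adjusted p = 4.34e-05), 1.69 ± 0.35 at 12 h (adjusted p = 0.000918), 0.98 ± 0.27 at 24 h (adjusted p = 0.00637) and -0.23 ± 0.35 at 72 h (adjusted p = 0.67).

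Kcnv1 moved against Kcnf1 at the same early times. It was at 11.3, 6.07 and 9.72 CPM at 6 h and 16.7, 17.8 and 4.14 CPM at 12 h, all below the lowest of the 9 controls, 22.3 CPM. The log2FC was -2.07 ± 0.40 at 6 h (adjusted p = 0.000457) and -1.64 ± 0.43 at 12 h (adjusted p = 0.00557), the latter lost without Ctr 12 h replicate 3, where it was -0.98. Kcng4 was at 7.67, 4.63 and 9.32 CPM in the 12 h controls and 5.02, 1.69 and 3.66 CPM after SE, which overlap, and at 8.56, 9.08 and 7.48 CPM in the 36 h controls and 2.22, 0.631 and 3.36 CPM after SE, which do not. It fell by 1.10 at 12 h (adjusted p = 0.0427, lost without any of 9 libraries), 1.73 at 24 h (adjusted p = 0.00114) and 2.03 at 36 h (adjusted p = 0.00127) on the log2 scale. Kcns2 fell by 1.07 at 12 h on the log2 scale (adjusted p = 0.0109), a call lost without Ctr 12 h replicate 3 or SE 12 h replicate 3, and Kcng1 was lower at 24 h (log2FC -1.18 ± 0.45, adjusted p = 0.0425). Kcng3 was near the limit of detection, at 0.0387 to 0.346 CPM in the 12 h controls and 0.729 to 0.956 CPM at 12 h after SE. The log2FC at 12 h was 2.18 ± 0.84, a call lost without any of 15 libraries. It passed the filter on low counts only with the SE libraries, so no p-value is given for it. Kcng3 had 0 counts in all 3 libraries at 24 h, while the controls held 23 counts in all. That makes it at least 3.07-fold lower at 24 h, against 3 counts over the group.

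Promoter sequence from RefSeq (GRCm38.p6, 250 bases before to 50 after a start site) was available for 54 of the 77 members, with 74 promoters. Short binding motifs were searched on both strands, among them those of factors that neuronal activity induces or activates, since the members moved within hours of SE. The EGR motif GCGNGGGCG was in 5.41% of member promoters and 5.55% of all 32851 promoters, the AP-1 motif TGANTCA in 2.7% and 7.81%, and the CRE TGACGTCA in 0% and 1.79%. The E-box CACGTG was in 9.46% and 7.15%. These shares were not tested, and a match is a description of letters only. The EGR matches are shown for the genes that carry them, Kcna4, Kcng3 and Kcnt2, which moved at 6 or 12 h, and Kcnk2, which did so later. Each line reads 5′ to 3′ on the strand of the gene, with the match, or its reverse complement, in capitals.
Kcna4, chr2:107290578-107290606, plus strand: ggccaggcccCGCCCCCGCccgtgcgcgc
Kcng3, chr17:83632099-83632127, minus strand: gccactgcggGCGGGGGCGcacggcgtca
Kcng3, chr17:83632010-83632038, minus strand: ggaggtgcggGCGCGGGCGggcaaggagg
Kcng3, chr17:83631927-83631955, minus strand: agggaggcccCGCCCCCGCctcccggagc
Kcnk2, chr1:189343502-189343530, minus strand: cccatcgcgcGCGGGGGCGtcgtcgtccg
Kcnt2, chr1:140245681-140245709, plus strand: ccaccgccttCGCCCCCGCcttcgtccgg
None of the 6 matches overlapped another motif searched. Of the genes that carry them, Kcna4 and Kcng3 rose at 6 and 12 h and Kcnt2 fell, while Kcnk2 fell at 24 and 36 h.

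Of 8 ether-a-go-go genes (Kcnh), 4 fell at 12 h (Kcnh3, Kcnh4, Kcnh7 and Kcnh8), Kcnh1 rose and 3 were not called. Kcnh3, a forebrain channel and the most abundant member (48.8% of the summed control level), was at 147, 154 and 102 CPM in the 12 h controls and 70.2, 51 and 58 CPM at 12 h after SE, without overlap. Its log2FC was -1.16 ± 0.18 at 12 h (adjusted p = 6.07e-05), -0.86 ± 0.18 at 36 h (adjusted p = 0.00113) and -0.49 ± 0.18 at 72 h (adjusted p = 0.0509). Kcnh1 was at 85, 162 and 79 CPM at 12 h against 48.1, 30.6 and 80.1 CPM in controls, groups that overlap, and its call was lost without SE 12 h replicate 2. Kcnh4 fell by 1.19 at 12 h on the log2 scale (adjusted p = 0.01, lost without Ctr 12 h replicate 2). Kcnh8 was at 1.04, 1.87 and 0.348 CPM in the 12 h controls and 0.398, 0.0994 and 0 CPM after SE, with overlap and a log2FC of -2.60 ± 0.95 (adjusted p = 0.0364, lost without any of 4 libraries).

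Kcnh7 (chr2:62523758-63014910 of GRCm39, minus strand), a slow ERG-type channel, fell at all matched times. In the 12 h groups it was at 70.8, 62.4 and 38.9 CPM in controls and 44.1, 25.4 and 38.3 CPM after SE. In the 36 h groups it was at 65.7, 68.1 and 64.8 CPM in controls and 26.2, 29.5 and 54.4 CPM after SE. At 72 h it was at 61.4, 127 and 78.7 CPM in controls and 43.2, 48.3 and 35 CPM after SE. The groups overlapped at 12 h and were apart at 36 and 72 h. The log2FC was -0.69 ± 0.24 (adjusted p = 0.0303), -0.87 ± 0.24 (adjusted p = 0.00938) and -0.99 ± 0.25 (adjusted p = 0.00504). The 12 h call was lost without Ctr 12 h replicate 1 or 2 or SE 12 h replicate 2, the 36 h call without SE 36 h replicate 1 or 2, and the 72 h call without Ctr 72 h replicate 2 or without the ganglion libraries (log2FC -0.98, adjusted p = 0.0687). Its exons share bases with Gca.

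Kcnq3 and Kcnq5 code for M-current subunits, and both had lower levels at 12 h than controls. Kcnq3 fell to 100, 90.1 and 58.9 CPM at 12 h from 175, 149 and 234 CPM in controls, with a log2FC of -1.16 ± 0.19 (adjusted p = 8.14e-05), and to 129, 102 and 125 CPM at 36 h from 216, 225 and 191 CPM, with a log2FC of -0.83 ± 0.19 (adjusted p = 0.00184). At 72 h its log2FC was -0.17 ± 0.19 (adjusted p = 0.527). Kcnq5 was at 22, 20.7 and 18.1 CPM at 12 h against 47.9, 48.8 and 191 CPM in controls, and its log2FC of -2.25 ± 0.43 became -1.25 without the high control, Ctr 12 h replicate 3.

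Kcnq1, the cardiac and epithelial member, was scarce and rose. It was at 0.0822 to 2.39 CPM in controls, 4.14, 2.44 and 3.5 CPM at 24 h and 2.96, 4.89 and 1.71 CPM at 36 h. The log2FC was 2.50 ± 0.48 at 24 h (adjusted p = 0.000315) and 3.66 ± 0.71 at 36 h (adjusted p = 0.000498). Its exons share bases with the antisense RNA Kcnq1ot1, and reads of the pair cannot be told apart.

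Of the small Kcne subunits, which modify the gating of voltage-gated channels, Kcne5 rose late. Its controls were at 4.33 to 7.84 CPM. After SE it was at 4.95, 7.84 and 5.86 CPM at 6 h, 4.77, 4.14 and 7.01 CPM at 12 h, 11.7, 7.27 and 6.8 CPM at 24 h, 16.8, 14.3 and 21.1 CPM at 36 h and 53.3, 56.1 and 22.8 CPM at 72 h. All 6 libraries at 36 and 72 h exceeded every control. The log2FC was 1.64 ± 0.30 at 36 h (adjusted p = 0.000271) and 2.59 ± 0.31 at 72 h (adjusted p = 3.87e-06), or 1.70 at 72 h without the ganglion libraries (adjusted p = 0.0075). Kcne4 was lower at 36 h, at 0.815, 0.867 and 1.25 CPM against 2.66, 2.4 and 1.97 CPM in controls (log2FC -1.21 ± 0.38, adjusted p = 0.0198, lost without any of 4 libraries), and higher at 6 h (log2FC 1.10 ± 0.28, a call lost without SE 6 h replicate 3).

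Among channels gated by calcium or sodium, the Kcnt pair and the small-conductance Kcnn1 and Kcnn2 fell at 12 h, and the large-conductance pore Kcnma1 was not called. Kcnt2, a sodium-activated channel, was at 31.9, 20.5 and 35.2 CPM in the 12 h controls and 8.25, 8.88 and 9.72 CPM at 12 h after SE. At 36 h it was at 36.6, 30.4 and 33.5 CPM in controls and 15.9, 9.62 and 10.9 CPM after SE. The groups did not overlap, with a log2FC of -1.72 ± 0.27 (adjusted p = 6.21e-05) and -1.47 ± 0.27 (adjusted p = 0.000294). At 72 h the controls were at 28.7, 7.16 and 19.9 CPM and the SE libraries at 16.6, 13.1 and 16.5 CPM, which overlap, and the log2FC was -0.12 ± 0.28. Kcnt1, which holds 85.3% of the Kcnt level, was at 228, 246 and 107 CPM in the 12 h controls and 152, 93.3 and 91.5 CPM after SE, groups that overlap, with a log2FC of -0.78 ± 0.26 (adjusted p = 0.0214, lost without any of 4 libraries).

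Kcnn2 carries the afterhyperpolarization of pyramidal cells. It was at 21.1, 17.6 and 25.7 CPM at 12 h after SE, below every other library of the series, and at 58.1, 41.5 and 47.8 CPM in the controls of that time. The log2FC was -1.20 ± 0.29 (adjusted p = 0.00283), while at 36 and 72 h it was -0.46 ± 0.28 and -0.06 ± 0.29. Kcnn1 fell by 0.73 at 12 h and by 1.06 at 72 h on the log2 scale, the former lost without Ctr 12 h replicate 3 or SE 12 h replicate 3, and the latter at -0.64 (adjusted p = 0.152) without the ganglion libraries. Kcnma1 had log2FCs of -0.34 ± 0.14, -0.48 ± 0.14 and -0.59 ± 0.14, of which the last 2 had adjusted p-values of 0.0106 and 0.00291 and missed the fold threshold. Its auxiliary subunits Kcnmb2 and Kcnmb4 were higher at 6 h (log2FC 0.88 ± 0.24 and 1.03 ± 0.32), both lost without SE 6 h replicate 3, and Kcnmb4 also at 24 h (log2FC 1.12 ± 0.32, lost without Ctr 72 h replicate 2, a library in which it had 0 counts). Kcnu1, a channel of sperm, was lower at 24 h (log2FC -1.11 ± 0.42, lost without any of 7 libraries).

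Kcnn4, the intermediate-conductance channel of microglia and blood cells, was close to 0 in most controls and was called higher at every time but 12 h. It was at 0 to 0.484 CPM in 8 controls and at 5.46 CPM in Ctr 72 h replicate 2. It passed the filter on low counts only with the SE libraries, so no p-value is given for it. It was at 0.24, 0.098 and 1.7 CPM at 6 h, 1.74, 0.928 and 0.478 CPM at 12 h and 0.319, 0.915 and 0.631 CPM at 24 h after SE. The fitted log2FCs at 6 and 24 h were 2.39 ± 0.71 and 2.34 ± 0.74, with the first call lost in 6 of 11 alternatives and the second in 4. The mean levels at these times, 0.679 and 0.621 CPM, were below the 0.731 CPM of all controls, a mean that Ctr 72 h replicate 2 raises. Kcnn4 was at 1.19, 0.631 and 2.85 CPM at 36 h and 4.62, 4.96 and 4.82 CPM at 72 h. At 36 h the SE libraries held 74 counts and the controls 2, a ratio of 38.3 with a 95% counting interval of 10.2 to 322. This interval covers counting error only. Of the 74 counts, 50 were in SE 36 h replicate 3, a ganglion library, and 16 and 8 in the others. At 72 h the fitted log2FC of 5.40 ± 1.14 was 3.16 to 9.22 when a library was left out, and the call was lost without Ctr 72 h replicate 1. Without the ganglion libraries the log2FC was 9.18. At 72 h Kcnn4 was not called with a covariate for ganglion genes (2.20), without the RUVr factor (1.35) or in thinned counts. The lowest value over the alternatives was 0.85.

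Microglial markers rose at 36 and 72 h as well, but not at 6 h. Of 9 markers, 6 rose at 36 h and 9 at 72 h, and their summed level was 365 to 448 CPM in controls, 740 to 841 CPM at 36 h and 1579 to 2255 CPM at 72 h. At 6 h, when Kcnn4 was called higher, 0 of them rose and 5 fell, with a summed level of 261 to 304 CPM. At 12 h, 1 of them rose and 2 fell, and at 24 h 4 rose and 1 fell. Their part in the rise of Kcnn4 was not tested.

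The calls of Kcnmb1 and Kcnk18 were set beside the ganglion genes. Both were called higher at 24 h, when no SE library was among the 6 with ganglion genes and 0 of 14 ganglion genes were called. Yet mean levels at 24 h, 1.65 CPM for Kcnmb1 and 0.16 CPM for Kcnk18, were below those of all controls, 2.02 and 0.209 CPM. The controls include Ctr 72 h replicate 2, a ganglion library with 13.3 and 1.02 CPM, which the RUVr factor mainly sets apart. What made these calls was not tested. At 72 h, 0 of the 14 ganglion genes were called either. Kcnmb1, an auxiliary subunit of Kcnma1 in smooth muscle, was at 3.69 to 13.3 CPM in the 6 ganglion libraries and at 0 to 2.92 CPM in the other 18, and was the only member whose ranges were apart in this way. Its fitted log2FC of 8.77 ± 1.35 at 72 h was 8.14 without those libraries and still called (adjusted p = 0.00878). It was not called with a covariate for ganglion genes (1.39, adjusted p = 0.193), in thinned counts or without the RUVr factor, where it was lowest (0.74). Kcnk18, a leak channel of sensory neurons, was at 0, 1.02 and 0 CPM in the 72 h controls and 0.947, 0.286 and 0 CPM after SE, and its fitted log2FC of 13.72 at 72 h had no value without the ganglion libraries, where it did not pass the filter. That call was also lost without the RUVr factor, with DESeq2 and with limma-voom.

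**Figure D3:**
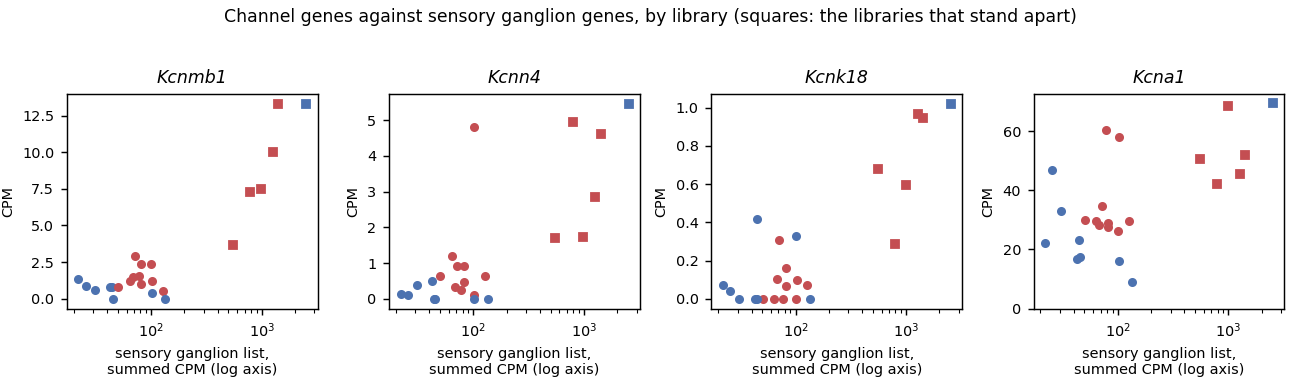
Level of Kcnmb1, Kcnn4, Kcnk18 and Kcna1 (CPM, vertical axis) in each of the 24 libraries against the summed level of sensory ganglion genes (CPM, log axis), with controls in blue, SE in red, and squares for the 6 libraries that stood apart. Kcnmb1 is at 3.69 CPM or more in all 6 and at 2.92 CPM or less in the other 18.

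The inward rectifiers held rises and falls that were called at all matched times, those of Kcnj2 and Kcnj15 and those of Kcnj9 and Kcnj11. Of 13 tested, 4 rose and 4 fell at 12 h, 3 rose and 4 fell at 36 h, and 2 rose and 2 fell at 72 h. Kcnj2 (chr11:110956981-110967665 of GRCm39, plus strand), the strong inward rectifier, was at 4.26, 7.81 and 6.07 CPM in the 12 h controls, 4.75, 4.12 and 4.27 CPM in the 36 h controls and 5.06, 4.6 and 7.12 CPM in the 72 h controls. SE libraries were at 18.8, 12 and 12 CPM at 6 h, 12.6, 9.45 and 17.3 CPM at 12 h and 18.8, 12.1 and 8.48 CPM at 24 h. It was at 14.2, 12 and 11.1 CPM at 36 h and 20.9, 11.6 and 12.4 CPM at 72 h.

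All 15 SE libraries of Kcnj2 thus lay above all 9 controls, as for Kcnk13 and no other member. Over all genes, 3.03% had every SE library above every control and 1.70% had every one below. The log2FC of Kcnj2 was 1.10 ± 0.31 at 12 h (adjusted p = 0.00757), 1.50 ± 0.31 at 36 h (adjusted p = 0.00103) and 1.48 ± 0.33 at 72 h (adjusted p = 0.00239). The 12 h call was lost without SE 12 h replicate 3, and at 72 h the value without the ganglion libraries was 1.09 (adjusted p = 0.167).

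Kcnj15 (chr16:95058417-95101119 of GRCm39, plus strand), an inward rectifier best known from epithelia, was all but absent from controls, with 1 count in the 9 libraries. It had 13, 29, 78, 39 and 28 counts in the 3 libraries of the successive times from 6 to 72 h, and was detected in all 15. At 24 h it was at 3.08, 1.83 and 0.49 CPM. The ratio to controls was 23.5 at 12 h (95% counting interval 3.89 to 959) and 195 at 24 h (34 to 7792), and the level was at least 13.4-fold higher at 36 h and at least 3.97-fold higher at 72 h against 3 counts over the control group. These intervals cover counting error only. Since Kcnj15 passed the filter on low counts only through the SE libraries, no p-value is given for it.

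Kcnj1, the renal rectifier, was detected briefly. It had 0 counts in all 9 controls, 55 counts at 6 h (0.719, 1.18 and 1.44 CPM) and 12 counts at 12 h (0.149, 0.166 and 0.319 CPM), and was at most 0.148 CPM later. It was at least 46.2-fold higher at 6 h and at least 3.24-fold higher at 12 h, against 3 counts over the controls. It too passed the filter only through the SE libraries, and no p-value is given.

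The G-protein-gated rectifiers, which mediate slow inhibition by GABA-B and adenosine receptors, fell in part. Kcnj9 (chr1:172144668-172163568 of GRCm39, minus strand) was at 131, 200 and 103 CPM in the 12 h controls, 137, 141 and 131 CPM in the 36 h controls and 140, 85.1 and 157 CPM in the 72 h controls. Its SE libraries were at 39.5, 53.8 and 36 CPM at 12 h, 50.8, 53.1 and 43.5 CPM at 36 h and 99, 55 and 69.5 CPM at 72 h. The groups were apart at 12 and 36 h and overlapped at 72 h. The log2FC was -1.74 ± 0.23 (adjusted p = 1.12e-05), -1.48 ± 0.23 (adjusted p = 6.09e-05) and -0.73 ± 0.23 (adjusted p = 0.0218). The 72 h call was lost without Ctr 72 h replicate 1 or 3 or SE 72 h replicate 2 or 3, and was -1.09 (adjusted p = 0.0607) without the ganglion libraries. Exons of Kcnj9 share bases with Igsf8.

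Kcnj3, the partner of Kcnj9 and Kcnj6 in these channels, was at 240, 180 and 226 CPM in the 12 h controls and 110, 77.5 and 121 CPM after SE, and at 241, 229 and 216 CPM in the 36 h controls and 118, 115 and 107 CPM after SE. The groups did not overlap. Its log2FC was -1.07 ± 0.17 at 12 h (adjusted p = 6.86e-05), -1.01 ± 0.17 at 36 h (adjusted p = 0.000127) and -0.54 ± 0.17 at 72 h (adjusted p = 0.0213, under the fold threshold). Kcnj6, a further subunit, had log2FCs of 0.27 ± 0.23, -0.40 ± 0.23 and -0.13 ± 0.24 and was not called. Kcnj14 was scarce and fell by 1.30 at 12 h (adjusted p = 0.0315, lost without any of 4 libraries) and by 2.40 at 36 h (adjusted p = 0.00101) on the log2 scale. Kcnj16, a glial partner of Kcnj10, was at 16.8, 26.4 and 9.25 CPM at 24 h, below the 32.9 to 47.2 CPM of the controls (log2FC -1.16 ± 0.29, adjusted p = 0.00347), and at 50.2, 70.1 and 106 CPM at 72 h, above them, with a log2FC of 0.80 ± 0.34 that was not called (adjusted p = 0.0855).

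The pore subunits of the ATP-sensitive channel went in opposite directions, and so did their sulfonylurea receptors. Kcnj11 (chr7:45743377-45750188 of GRCm39, minus strand), the neuronal pore, was at 38.7, 46.2 and 41.3 CPM in the 12 h controls, 45.4, 48.1 and 43.7 CPM in the 36 h controls and 39.3, 39.4 and 35.2 CPM in the 72 h controls. After SE it was at 16.6, 31.4 and 19.1 CPM at 12 h, 20, 14.1 and 16.3 CPM at 36 h and 17.2, 23.9 and 27.4 CPM at 72 h, with no overlap at any of these times. The log2FC was -0.91 ± 0.26 (adjusted p = 0.0085), -1.44 ± 0.26 (adjusted p = 0.000271) and -0.75 ± 0.26 (adjusted p = 0.04). The 72 h call was lost without any of Ctr 72 h replicates 1, 2 and 3 and SE 72 h replicates 1 and 2, and was -0.45 (adjusted p = 0.44) without the ganglion libraries.

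Kcnj8, the vascular pore of the same channel, was at 2.93, 4.42 and 3.98 CPM in the 12 h controls and 7.8, 5.9 and 10 CPM at 12 h after SE, and at 3.81, 3.5 and 4.03 CPM in the 36 h controls and 7.34, 4.26 and 10 CPM after SE. Its log2FC was 1.05 ± 0.27 (adjusted p = 0.00454), 0.94 ± 0.27 (adjusted p = 0.0119) and 0.43 ± 0.28 (adjusted p = 0.268), with the 36 h call lost without Ctr 36 h replicate 2 or SE 36 h replicate 3. Abcc8, the receptor that pairs with Kcnj11, had log2FCs of -1.69, -1.62 and -0.42 at 12, 36 and 72 h, with calls at the first 2. Abcc9, which pairs with Kcnj8 in vessels, had log2FCs of 0.92, 1.20 and 0.75, all called. Of 6 endothelial markers, 3 rose and 1 fell at 12 h, and 1 rose and 1 fell at 36 h, with a summed level of 221 to 314 CPM in controls and 276 to 441 CPM after SE. Of 5 mural cell markers, 0 rose and 1 fell at 12 h, and 1 rose and 0 fell at 36 h. The part of these cells in the rise of Kcnj8 was not tested.

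**Figure D4:**
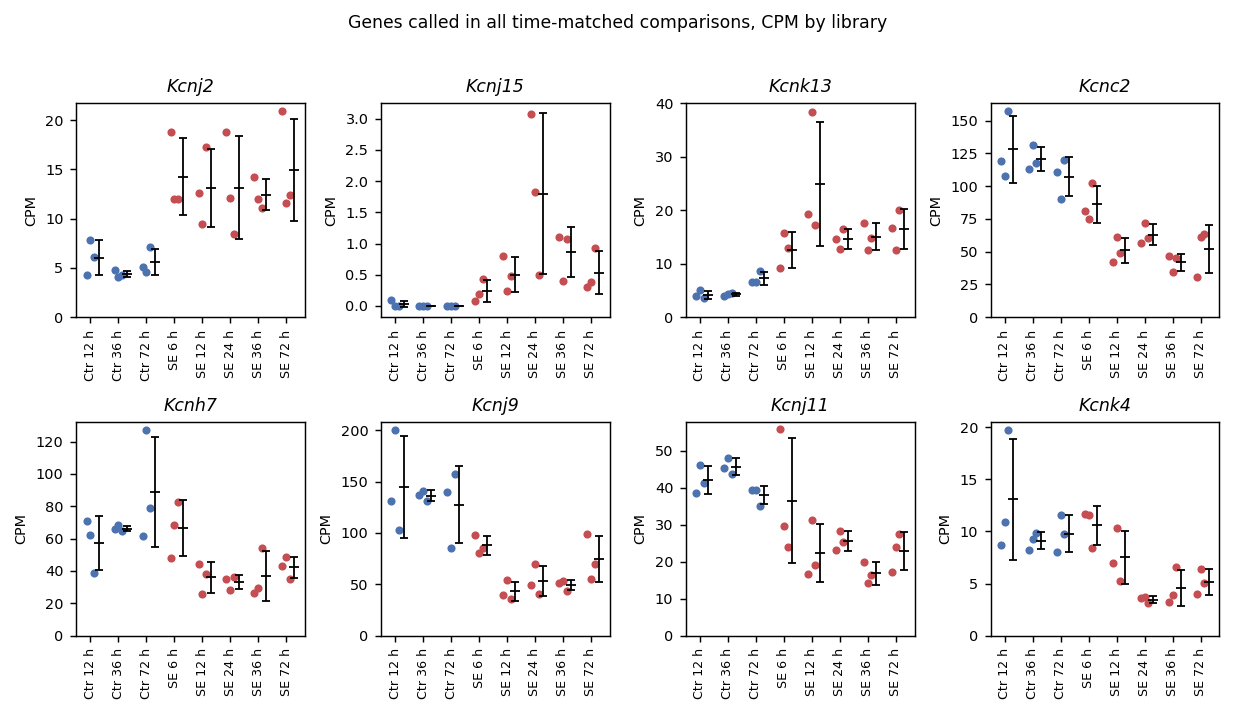
Level (CPM) in each library of the 8 members called at 12, 36 and 72 h, by group (controls blue, SE red), with points for libraries and the mean ± SD of 3 beside them. The rises of Kcnj2, Kcnj15 and Kcnk13 are in the top row with Kcnc2, and the falls of Kcnh7, Kcnj9, Kcnj11 and Kcnk4 below.

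The leak channels (Kcnk) rose more often than they fell at 12 h, when 4 of 11 were higher (Kcnk3, Kcnk5, Kcnk12 and Kcnk13) and 1 lower (Kcnk4). At 36 h 3 rose and 3 fell, and at 72 h 3 rose and 2 fell. Kcnk13 (chr12:99924948-100028942 of GRCm39, plus strand), which sets the resting potential of microglia and is found in some neurons, was at 3.98, 4.98 and 3.48 CPM in the 12 h controls, 4.03, 4.23 and 4.52 CPM in the 36 h controls and 6.5, 6.65 and 8.62 CPM in the 72 h controls. After SE it was at 9.11, 15.8 and 13 CPM at 6 h, 19.3, 38.3 and 17.3 CPM at 12 h and 14.7, 12.8 and 16.5 CPM at 24 h. It was at 17.7, 12.6 and 14.8 CPM at 36 h and 16.6, 12.6 and 20.1 CPM at 72 h.

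The rise of Kcnk13 was largest at 12 h, with a log2FC of 2.60 ± 0.28 (adjusted p = 1.12e-06), and was 1.82 ± 0.28 at 36 h (adjusted p = 4.90e-05) and 1.21 ± 0.29 at 72 h (adjusted p = 0.00368). No call at these times was lost when a library was left out. Without the ganglion libraries the values were 2.76, 1.83 and 1.46, all called. Of 9 microglial markers, 0 rose and 5 fell at 6 h, 1 rose and 2 fell at 12 h, 6 rose and 1 fell at 36 h, and 9 rose at 72 h. Their summed level was 261 to 304 CPM at 6 h, 296 to 417 CPM at 12 h and 1579 to 2255 CPM at 72 h, against 365 to 448 CPM in controls. The part of microglia in the rise of Kcnk13 was not tested.

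Kcnk4 (chr19:6901334-6911883 of GRCm39, minus strand), a mechanosensitive leak channel, fell at all matched times and most at 24 h. It was at 8.71, 10.9 and 19.7 CPM in the 12 h controls, 8.2, 9.29 and 9.86 CPM in the 36 h controls and 8.02, 11.6 and 9.75 CPM in the 72 h controls. In the SE groups it was at 6.96, 10.3 and 5.26 CPM at 12 h, 3.26, 3.94 and 6.55 CPM at 36 h and 3.96, 6.39 and 5.07 CPM at 72 h. The groups overlapped at 12 h and were apart at 36 and 72 h. The log2FC was -0.79 ± 0.30 (adjusted p = 0.041), -0.99 ± 0.31 (adjusted p = 0.0182) and -0.90 ± 0.32 (adjusted p = 0.0415), and -1.59 ± 0.28 at 24 h (adjusted p = 0.00013). Each of the matched calls was lost without any of 3 to 6 libraries, the 12 h value reaching -0.37, and the 72 h value was -0.78 (adjusted p = 0.321) without the ganglion libraries. Its exons share bases with Catsperz on the same strand.

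Kcnk6 had a late rise like that of Kcne5. It was at 3.38 to 5.91 CPM in the controls, 12.8, 8.28 and 10.4 CPM at 36 h and 20.4, 21.5 and 24.5 CPM at 72 h, with every library at both times above every control. The log2FC was 1.21 ± 0.26 at 36 h (adjusted p = 0.00146) and 2.23 ± 0.28 at 72 h (adjusted p = 6.57e-06). The microglial levels given for Kcnn4 hold beside this rise and that of Kcne5 too, and astrocyte markers summed to 3894 to 5062 CPM in controls and 11983 to 13581 CPM at 72 h. The part of either cell type was not tested.

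The acid-sensitive leak channels Kcnk3 and Kcnk9 form heteromers. They were called in opposite directions at 6 h only. Kcnk3 was then at 35.6, 54.5 and 49.4 CPM, against 9.4 to 44.6 CPM in controls (log2FC 1.16 ± 0.29, adjusted p = 0.00356). Kcnk9 was at 109, 85 and 77.1 CPM at 6 h, against 92.9 to 180 CPM in controls (log2FC -0.74 ± 0.28, adjusted p = 0.0402, lost without any of 9 libraries). Kcnk3 was at 20.7, 20.7 and 9.4 CPM in the 12 h controls and 34, 29.6 and 51.6 CPM at 12 h after SE, without overlap, with a log2FC of 1.19 ± 0.38 (adjusted p = 0.0173) that lost its call without Ctr 12 h replicate 3 or SE 12 h replicate 3. Kcnk9 was at 171, 178 and 180 CPM in the 36 h controls and 54.1, 48.7 and 32.3 CPM after SE, and at 154, 92.9 and 168 CPM in the 72 h controls and 55.4, 46.4 and 58 CPM after SE. The groups were apart at both times, with a log2FC of -1.99 ± 0.34 (adjusted p = 0.000152) and -1.35 ± 0.34 (adjusted p = 0.00523). At 12 h its log2FC was -0.83 ± 0.33, and that of Kcnk3 at 36 and 72 h was 0.21 ± 0.38 and -0.92 ± 0.39, none of them called. Without the ganglion libraries the 72 h value of Kcnk9 was -1.47 (adjusted p = 0.119).

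Kcnk1, the most abundant leak channel in controls (40% of the summed level), was not called, with log2FCs of 0.64 ± 0.21, 0.54 ± 0.21 and 0.10 ± 0.21. Kcnk2 fell at 36 h to 22.5, 25.3 and 17 CPM from 51.3, 46.6 and 42.7 CPM in controls, with a log2FC of -1.12 ± 0.32 (adjusted p = 0.0117) whose call was lost without SE 36 h replicate 3. Kcnk10, its close relative, rose at 36 h, by a log2FC of 0.84 ± 0.18 (adjusted p = 0.00101). Kcnk12 and Kcnk5 rose at 12 h (log2FC 1.03 ± 0.30 and 2.33 ± 0.79), both with calls lost without SE 12 h replicate 2, and Kcnk5 also without Ctr 12 h replicate 1 or 3. Kcnk5 passed the filter on low counts only with the SE libraries.

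Whether the effect of SE differed between times was tested directly as the difference of the log2FCs. Between 72 and 12 h it differed for 12 members (15.8%, near the 18.6% of all genes), with 8 differences positive and 4 negative (5.26% of members negative, against 6.25% of all genes). Negative differences were those of Kcnf1 (-1.92 ± 0.50, adjusted p = 0.00978), Kcnk3 (-2.11 ± 0.54, adjusted p = 0.00976), Kcna4 (-1.57 ± 0.52, adjusted p = 0.0381) and Kcnk13 (-1.39 ± 0.40, adjusted p = 0.017), whose rises at 12 h were smaller or absent at 72 h. Positive differences came from falls that had shrunk, as in Kcnt2 (1.60 ± 0.38, adjusted p = 0.00607), Kcnq3 (0.98 ± 0.26, adjusted p = 0.012), Kcnj9 (1.01 ± 0.32, adjusted p = 0.031) and Kcns2 (1.38 ± 0.45, adjusted p = 0.0352), and from late rises, as in Kcne5 (2.55 ± 0.43, adjusted p = 0.000515) and Kcnk6 (1.86 ± 0.38, adjusted p = 0.00214). Between 36 and 12 h it differed for 2 members (2.63%, against 3.35% of all genes). Without the ganglion libraries, 3 members differed between 72 and 12 h, of which 1, Kcnk6, was among the 12.

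**Figure D5:**
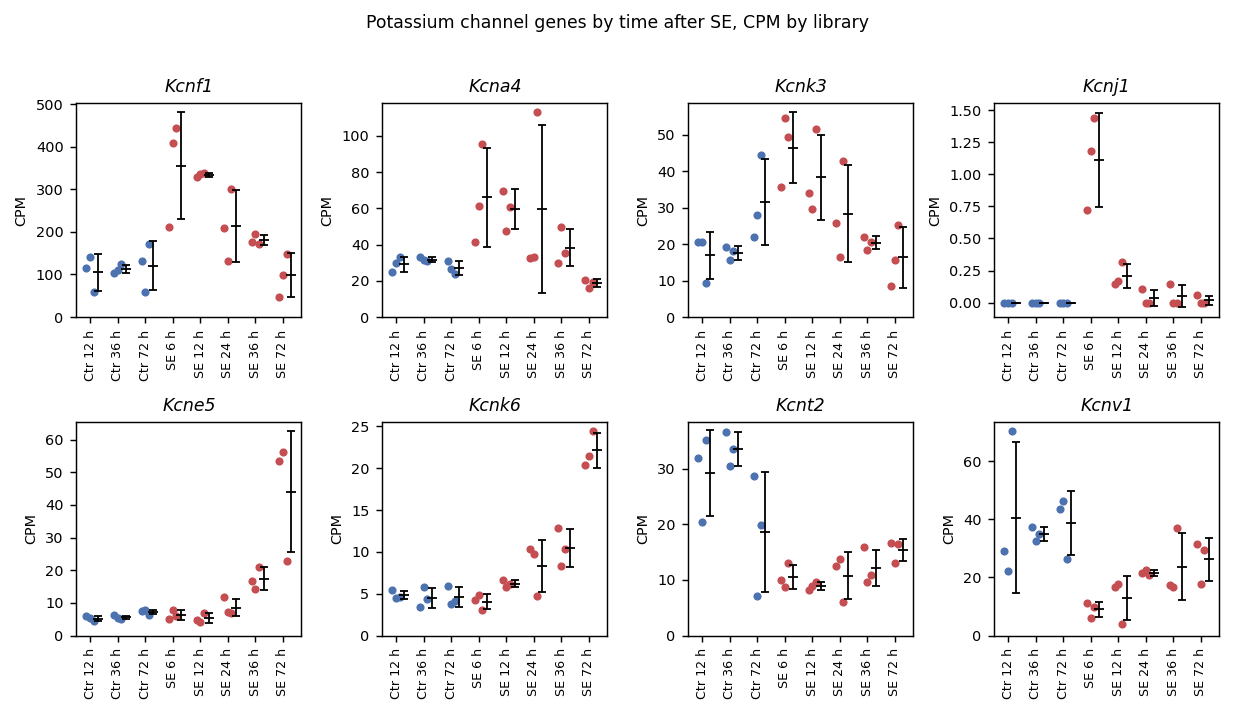
Level (CPM) in each library of Kcnf1, Kcna4, Kcnk3 and Kcnj1 (top row) and Kcne5, Kcnk6, Kcnt2 and Kcnv1 (bottom row), by group (controls blue, SE red), with the mean ± SD of 3 libraries. Kcnf1 is at 329 to 338 CPM at 12 h and at 47.2 to 149 CPM at 72 h, while Kcnk6 reaches 20.4 to 24.5 CPM at 72 h.

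Genes that code for partners of these channels also fell more often than they rose at 12 and 36 h. Of 38 tested of a list of 39, 7 rose and 12 fell at 12 h, 3 rose and 8 fell at 36 h, and 4 rose and 1 fell at 72 h, with median log2FCs of -0.24, -0.24 and -0.33. Rises thus made up 18.4%, 7.89% and 10.5% of the list, and falls 31.6%, 21.1% and 2.63%. Among all genes, 13.9%, 12.7% and 15.2% rose and 11.4%, 8.96% and 4.15% fell at these times, so both shares at 72 h lay below the background. The rises at a matched time included those of Abcc9, Lrrc26, Lrrc55, Dlg1, Rgs7, Rgs9, Lingo1 and Atp1b2, and the falls included those of Abcc8, Amigo2, Lrrc55, Adam11, Adam22, Adam23, Cntnap1, Cntnap2, Cntn2, Akap5, Calm2 and Calm3. Lrrc55 is in both, lower at 12 h (log2FC -1.33) and higher at 36 h (log2FC 1.57). Cntnap2, which clusters Kcna channels on axons, fell at all of these times, with log2FCs of -1.08 (adjusted p = 0.00048), -1.16 (adjusted p = 0.000258) and -0.73 (adjusted p = 0.0132). Akap5, an anchoring protein of M-channels, had log2FCs of -1.75 (adjusted p = 9.81e-06) and -2.15 (adjusted p = 8.93e-07) at 12 and 36 h. Amigo1, an auxiliary subunit of Kcnb channels, was not called, with log2FCs of -0.41, -0.47 and -0.54 and adjusted p-values of 0.0155, 0.00719 and 0.00337.

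General neuronal and CA1 pyramidal markers fell or were not called. Of 10 general neuronal markers, 0 rose at any matched time and 2, 3 and 2 fell at 12, 36 and 72 h, with median log2FCs of -0.52, -0.36 and -0.40. Their summed level was 9344 to 12652 CPM in controls, 6762 to 8365 CPM at 12 h, 7306 to 8761 CPM at 36 h and 7020 to 7423 CPM at 72 h. Of 7 CA1 pyramidal markers, 1, 3 and 2 fell and 0 rose. Other neuronal markers rose: of 5 markers of dentate granule cells, which lie next to CA1, 0, 1 and 2 rose and 0 fell at 12, 36 and 72 h, with Prox1 (log2FC 3.05) and C1ql2 (log2FC 4.02) called at 72 h. Their summed level was 8.53 to 113 CPM in controls and 23.5 to 254 CPM at 72 h. Npy rose at all matched times. The part of these shifts in the falls of the channel genes was not tested.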

How the data were processed

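PolyA RNA was sequenced as paired-end reads. Per the labels and the study's methods, the authors trimmed with Trim Galore 0.6.6, aligned with STAR 2.7.8a to GRCm39 and deposited raw counts per gene from HTSeq 0.13.5, ignoring strand and with no normalization, so genes with overlapping exons are uncertain. Symbols, positions and exon lengths came from GENCODE M39 (18552 of 18647 rows matched).

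All 24 libraries were fitted together in R 4.3.3 with edgeR 4.0.16 (TMM, filterByExpr, a term per group and 1 RUVr factor of unwanted variation, computed from the residuals of a first fit). The factor was 0.80 in Ctr 72 h replicate 2 and -0.39 and -0.35 in the other 72 h controls. In the other groups it lay between -0.10 and 0.13, so it mainly sets Ctr 72 h replicate 2 apart. The 72 h calls of Kcnmb1, Kcnn4 and Kcnk18 were lost without it. The fit was tested on simulated data. Genes named are those called at 12, 36 or 72 h, the largest changes and the most abundant members of each subfamily. Members, gene lists, motifs and this rule were chosen with earlier results of these data known. Alternatives used DESeq2 1.42.0, limma 3.58.1, other scalings, filters and thresholds, and left out libraries. Numbers shared by groups did not pair the libraries. A few single genes are not reported here.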

Additional observations from a re-analysis of the deposited data

Results flagged for a closer look

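The effect of SE on 13 potassium channel genes differed between times by a direct test of the difference of log2FCs (edgeR's quasi-likelihood test, adjusted over all genes). These were 2.63% of members between 36 and 12 h and 15.8% between 72 and 12 h. Among all genes 3.35% and 18.6% differed, so neither share of members exceeded that of all genes. Between 36 and 12 h, the difference was -2.03 for Kcne4 (adjusted p = 0.0358) and 1.61 for Kcne5 (adjusted p = 0.0395). Without the libraries with ganglion genes these were -2.54 (adjusted p = 0.0195) and 1.38 (adjusted p = 0.0708), and each call was lost in 9 of 24 fits without a library.

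Between 72 and 12 h, the difference was -1.57 for Kcna4, -1.92 for Kcnf1, -2.11 for Kcnk3 and -1.39 for Kcnk13. Without the ganglion libraries these were -1.40, -1.71, -1.61 and -1.29, with adjusted p-values of 0.243, 0.092, 0.165 and 0.145. The difference was 1.38 for Kcns2, 0.98 for Kcnq3, 1.60 for Kcnt2 and 1.01 for Kcnj9, and 1.11, 0.94, 1.07 and 0.59 without those libraries (adjusted p = 0.169, 0.0779, 0.21 and 0.416). It was 2.55 for Kcne5, 1.50 for Kcnj16 and 6.91 for Kcnmb1, and 1.60, 1.90 and 7.05 without them (adjusted p = 0.0508, 0.0566 and 0.0572). For Kcnk6 it was 1.86, and 1.91 without them (adjusted p = 0.0399), the only one of the 12 still called. No omission of a library ended the call of Kcnf1, Kcnq3, Kcne5, Kcnk3 or Kcnk6, while that of Kcna4 was lost in 8 of 24, those of Kcns2 and Kcnj9 in 5 each, that of Kcnj16 in 4, that of Kcnmb1 in 2 and those of Kcnt2 and Kcnk13 in 1 each.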

How the results depend on the processing

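Replicates with the same number did not deviate together (correlations of -0.201 to 0.181 at the matched times). A fit with the replicate number as a block gave 36, 26 and 16 members called at 12, 36 and 72 h, 25 and 32 at 6 and 24 h, 33 for all SE against all control libraries, and 2 and 15 for the differences of 36 and 72 h from 12 h, so it moved no count by more than 1.5 times.

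When every library was thinned to the smallest, 67 members were tested and 12, 8 and 7 were called at 12, 36 and 72 h and 8 and 15 at 6 and 24 h, with 0 and 1 for the differences of 36 and 72 h from 12 h. With at least 10 counts in every library, 52 members were tested, 11 were called at 6 h, 21 over all libraries and 1 for 36 minus 12 h. With a factor for the range in which the labels' library numbers lie, 16 were called at 6 h, 20 at 24 h and 1 for 36 minus 12 h. At an absolute log2FC of at least 1, 17 of the 33 over all libraries were left. Chosen after the data were seen, the omission of the libraries with ganglion genes gave 7 at 72 h and 1 and 3 for the differences, and a covariate for ganglion genes, replacing the RUVr factor, gave 1 for 36 minus 12 h. The 2 members of that difference became 0 without the RUVr factor and with limma-voom (10 and 7 at an unadjusted p under 0.05; DESeq2 called 2), and 3 at an unadjusted p in the thinned counts. Other causes were not tested.

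With each library left out in turn, 23 to 39 members were called at 12 h (23 without Ctr 12 h replicate 3 or SE 12 h replicate 3), 23 to 27 and 13 to 16 at 36 and 72 h, 16 to 27 at 6 h (16 without SE 6 h replicate 3), 23 to 33 at 24 h, 31 to 34 over all, 0 to 3 for 36 minus 12 h and 10 to 15 for 72 minus 12 h. Calls of 26 of 36 members at 12 h, 18 of 25 at 36 h and 12 of 15 at 72 h were lost in at least 1 alternative or omission. Calls kept in all of them were those of Kcnab2, Kcnc2, Kcnf1, Kcnh3, Kcnq3, Kcnq5, Kcnj3, Kcnj8, Kcnj9 and Kcnk13 at 12 h, Kcnab2, Kcnc2, Kcnj3, Kcnj9, Kcnj11, Kcnj15 (which passed the filter only through the SE libraries) and Kcnk9 at 36 h, and Kcnc2, Kcne5 and Kcnk6 at 72 h. Directions turned with the ganglion covariate for Kcnmb1 at 12 h (-0.05) and 6 h (-0.02) and Kcnk18 at 6 h (-0.38), and in thinned counts for Kcne4 at 36 h (0.34) and Kcnmb4 at 24 h (-0.15), none of them called.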
